A study of Mus musculus with 12 samples.

Results

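The genes described here carry the RNA of the MHC class I molecule in mouse pancreatic islets. They are 8 heavy chain genes (H2-K1, H2-D1, H2-Q4, H2-Q6, H2-Q7, H2-T22, H2-T23 and H2-M3), the light chain gene B2m, and Nlrc5, chosen by name from the 55536 genes of the count table, and 10 of 10 passed the filter on low counts that left 19800 genes for testing. Islets came from mice of 16 weeks on a mixed background with C57BL/6J. Total RNA was sequenced in 4 groups of 3 libraries: islets labelled PTPN2 -/- (Ptpn2-bKO in the protocols) with and without cytokines, and control islets labelled PTPN2 fl/fl (PTPN2 +/+ in the titles) with and without cytokines. The cytokines were TNF alpha, IL-1beta and INF-gamma, given together for 24 h in islet culture medium. All 12 libraries are of whole cultured islets with RNA integrity numbers over 8, and neither the Cre line nor the deleted part of Ptpn2 is given in the labels.

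Class I molecules carry peptides from inside the cell to its surface, where CD8 T cells inspect them, and a heavy chain needs beta-2-microglobulin, the B2m product, to reach the surface. H2-K1 and H2-D1 encode the classical, highly polymorphic heavy chains, and the H2-Q, H2-T and H2-M genes encode non-classical ones with narrower roles. In many tissues interferon-gamma raises the genes of this system through JAK kinases and IRF1, NF-kB acts on the classical promoters, and NLRC5 joins the RFX, CREB and NF-Y factors on the class I promoters to activate them. High class I on beta cells is a known feature of islets in type 1 diabetes. The phosphatase encoded by Ptpn2 acts on JAK and STAT proteins and so dampens interferon signals.

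RefSeq promoter entries (build GRCm38.p6) matched 9 of the 10 genes, all but Nlrc5. The stretches below are shown because they hold the interferon-response core that all 9 share, GAANNGAAA or GAAANNGAAA on either strand, and, upstream of it in the classical and some H2-Q genes, the NF-kB site of the class I enhancer, GGGGATTCCC, taken as the letters that the kappa-B consensus first matches in H2-K1. Each runs 5′ to 3′ on the gene's strand, is 30 bases long, and has the matches in capitals. For NF-kB only the exact letters GGGGATTCCC were searched. Other letters that fit the consensus (GGGRNNYYCC, with R for A or G and Y for C or T) stay in lower case. An example is ggggatttcc in H2-Q4, so a stretch without capitals there can still hold a kappa-B match.
H2-K1: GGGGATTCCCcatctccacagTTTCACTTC
H2-D1: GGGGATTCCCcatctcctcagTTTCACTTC
H2-Q4: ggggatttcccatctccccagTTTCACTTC
H2-Q6: GGGGATTCCCcatctccccagTTTCACTTC
H2-Q7: tGGGGATTCCCatctccccagTTTCACTTC
H2-M3: attcccccatttcctctgaggTTTCACTTC
H2-T22: taattggcttagTTTCACTTTCgaatcccc
H2-T23: ggatcctactgcTTTCTCTTTCataaagac
B2m: ttataagaacatGAAACTGAAAatgggaaa
H2-T-ps: ggatcctactgcttgcttcctgtttcataa
H2-T-ps, a pseudogene close to H2-T23, is added for comparison, and its stretch, placed by the bases it begins with in common with H2-T23, holds no match. Counts assigned to H2-T-ps rose with cytokines. By edgeR its log2 fold change was 3.48 in bKO-labelled islets (adjusted p = 5.38e-04) and 4.82 in control islets (adjusted p = 7.84e-05). H2-T-ps shares 50-base stretches with the more abundant H2-T23, so the assignment of reads to it is uncertain. The count ratio of H2-T23 to H2-T-ps was 1.45 and 1.53 in treated control replicates 1 and 2. In untreated control libraries it was 11.2 to 15.4. The control fold change can therefore hold a difference between libraries, and its part was not tested. The sites lie on chromosome 17, at chr17:34000429-34000458 for H2-K1 (minus strand) and chr17:35262923-35262952 for H2-D1 (plus strand), except that of B2m, which lies on chromosome 2 at chr2:122147536-122147565 (plus strand). Promoters are set by RefSeq starts, while gene positions given further on are from GENCODE, and the 2 sources can differ. The stretches of H2-D1 and H2-T23 (chr17:36032808-36032837) lie inside the GENCODE genes, at chr17:35262730-35267499 and chr17:36029773-36032855.

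Among all 32851 promoter entries, searched in the 250 bases before the start on both strands, either interferon-response core was in 8.82% and GGGGATTCCC in 0.0852%, or 28 entries. GGGGATTCCC together with GAANNGAAA was in 7 entries (0.0213%), which belong to 6 genes: H2-K1, H2-D1, H2-Q6, H2-Q7, Hyal2 and R3hdm2. The GAS letters TTCNNNGAA, bound by STAT dimers, were in 7.02% of entries and in H2-M3 alone among the 9 genes. The letters TGACG of the X2 box, the CREB part of the module on which NLRC5 acts, were in 17.8% of entries and in 7 of the 9 genes, all but H2-Q6 and H2-T23. CCAAT, the NF-Y site, was in 33.8% of entries and in all 9 genes. A match describes these letters only.
The whole stretch before the start of H2-K1 (chr17:34000348-34000597, minus strand, 250 bases) and of B2m (chr2:122147437-122147685, plus strand, 249 bases) shows how these elements are spaced, with the interferon core, GGGGATTCCC, TGACG and CCAAT (as ATTGG) in capitals.
H2-K1: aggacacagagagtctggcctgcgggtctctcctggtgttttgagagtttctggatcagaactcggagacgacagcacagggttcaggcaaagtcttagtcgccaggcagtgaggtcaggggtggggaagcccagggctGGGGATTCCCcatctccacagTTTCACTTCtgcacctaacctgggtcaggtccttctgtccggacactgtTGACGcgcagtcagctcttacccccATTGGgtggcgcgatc
B2m: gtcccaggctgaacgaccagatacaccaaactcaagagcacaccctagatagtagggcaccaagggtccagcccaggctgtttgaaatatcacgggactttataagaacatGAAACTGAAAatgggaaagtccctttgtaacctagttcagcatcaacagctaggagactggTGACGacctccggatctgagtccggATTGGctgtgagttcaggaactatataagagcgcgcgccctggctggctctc
In both, the interferon core lies upstream of TGACG and TGACG upstream of ATTGG. In H2-K1 the NF-kB site begins 111, the interferon core 90, TGACG 41 and ATTGG 16 bases before the start. In B2m the interferon core begins 139, TGACG 78 and ATTGG 53 bases before it. The letters ggaaagtccc in B2m fit the kappa-B consensus on the opposite strand but were not searched for, and are not marked.

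Libraries held 47064061 to 107515565 counts. Ptpn2 RNA, counted over the whole gene, showed no loss in bKO-labelled islets. In CPM, the count of a gene set against the TMM-scaled total of its library, it stood at 111, 84.2 and 107 CPM in bKO-labelled islets with cytokines against 88.9, 90.4 and 78.3 CPM in control islets with cytokines. Without cytokines it stood at 36.7, 33.8 and 35.5 CPM in bKO-labelled against 30.3, 31.5 and 31.4 CPM in control islets. The genotype is therefore known from the label only. The protocols name 3 mice per genotype, so by this wording the 6 libraries of a genotype share mice. Which libraries share a mouse could not be told from the replicate numbers, and the test did not pair them. The p-values measure the spread between these libraries. On a principal component analysis, replicate 2 of the bKO-labelled islets with cytokines lay at the end of the second component (4.65% of the variance). For H2-T22 and H2-T23, libraries within a group stood far apart, as described further on.

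With cytokines, 10 of 10 genes rose in bKO-labelled islets and 10 of 10 rose in control islets, at an adjusted p under 0.05 by edgeR's quasi-likelihood test over all tested genes. Of all tested genes 28.8% rose in bKO-labelled and 26.8% in control islets. In each genotype every treated library was above every untreated one for each of the 10 genes, which held for 29.8% of all tested genes in bKO-labelled and 30.5% in control islets. The median log2 fold change of the 10 genes was 3.54 in bKO-labelled islets, where the median of all tested genes was -0.06, and 3.11 in control islets, where it was -0.10. Together the 10 genes took 0.914% to 1.02% of the counts of treated bKO-labelled libraries and 0.144% to 0.152% of untreated ones. In control islets they took 0.913% to 0.962% with cytokines and 0.105% to 0.144% without.

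**Figure D1:**
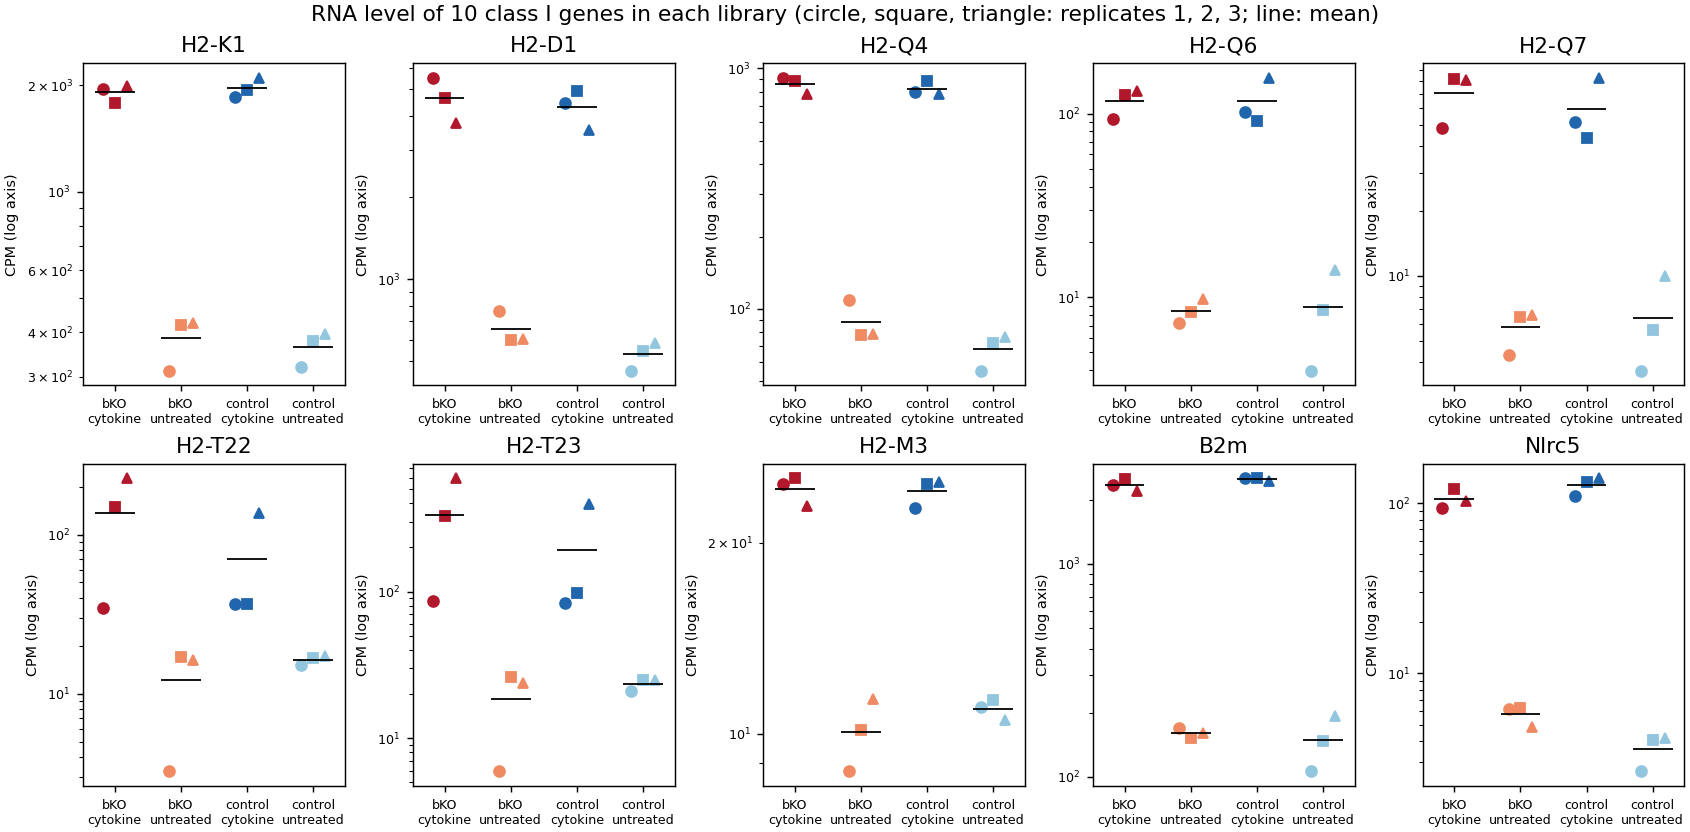
RNA level of each of the 10 genes in each library, in CPM on a log axis whose range differs between panels. Points are libraries, with circle, square and triangle for replicates 1, 2 and 3, and lines are group means. All treated libraries lie above the untreated ones of their genotype, and the points of H2-T22 and H2-T23 spread widely within groups.

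B2m, the light chain shared by all heavy chains, rose in each genotype. It had 2344, 2497 and 2206 CPM in bKO-labelled islets with cytokines against 170, 152 and 160 CPM without, a log2 fold change of 3.87 (SE 0.18, adjusted p = 1.56e-08) or 14.6-fold. In control islets it had 2520, 2517 and 2442 CPM with cytokines against 106, 147 and 193 CPM without, a log2 fold change of 4.07 (SE 0.19, adjusted p = 1.15e-08) or 16.8-fold. The treated libraries of both genotypes lie close together, and the widest spread is among the untreated control libraries. B2m lies at chr2:122147686-122153083 on the plus strand, away from the heavy chains, and shares no 50-base stretch of its transcripts with another gene.

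The classical heavy chains rose by smaller factors than B2m. H2-K1 had 1954, 1780 and 1992 CPM in bKO-labelled islets with cytokines against 312, 420 and 424 CPM without (log2 fold change 2.31, SE 0.13, adjusted p = 6.19e-08). In control islets H2-K1 had 1850, 1941 and 2097 CPM with cytokines against 319, 377 and 397 CPM without (log2 fold change 2.43, SE 0.13, adjusted p = 4.53e-08). The 6 treated libraries overlap between the genotypes, as do the 6 untreated ones.
H2-D1 was the heavy chain with the most RNA. It had 5515, 4642 and 3770 CPM in bKO-labelled islets with cytokines against 764, 596 and 605 CPM without (log2 fold change 2.83, SE 0.18, adjusted p = 1.53e-07). In control islets H2-D1 had 4467, 4910 and 3547 CPM with cytokines against 461, 545 and 584 CPM without (log2 fold change 3.02, SE 0.18, adjusted p = 1.04e-07). H2-K1 lies at chr17:33996017-34000347 on the minus strand. H2-D1 lies at chr17:35262730-35267499 on the plus strand, and the H2-Q genes follow it in order of position.

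The H2-Q genes had larger fold changes than the classical ones and stood lower in level. Differences in fold change between genes were not tested. H2-Q4 had 915, 885 and 782 CPM in bKO-labelled islets with cytokines against 109, 77.9 and 78.5 CPM without (log2 fold change 3.28, SE 0.16, adjusted p = 2.02e-08). In control islets H2-Q4 had 795, 883 and 783 CPM with cytokines against 55.4, 72.4 and 76.8 CPM without (log2 fold change 3.59, SE 0.16, adjusted p = 1.15e-08). All 6 treated libraries lie between 782 and 915 CPM.
H2-Q6 and H2-Q7 encode the Qa-2 antigen, a lipid-anchored class I molecule. H2-Q6 had 93.6, 127 and 132 CPM in bKO-labelled islets with cytokines against 7.25, 8.28 and 9.78 CPM without (log2 fold change 3.80, SE 0.39, adjusted p = 6.27e-06). In control islets H2-Q6 had 102, 90.7 and 157 CPM with cytokines against 3.98, 8.52 and 14.0 CPM without (log2 fold change 3.71, SE 0.39, adjusted p = 8.11e-06). H2-Q7 followed at a lower level, with 48.5, 82.1 and 81.0 CPM in bKO-labelled islets with cytokines against 4.31, 6.45 and 6.59 CPM without, a log2 fold change of 3.61 (SE 0.39, adjusted p = 9.31e-06).
In control islets H2-Q7 had 51.8, 43.5 and 83.1 CPM with cytokines against 3.63, 5.62 and 9.99 CPM without (log2 fold change 3.20, SE 0.38, adjusted p = 2.25e-05). Replicate 3 is the highest control library for both genes with and without cytokines. Of the 50-base stretches in H2-Q6 transcripts 35.0% also occur in another gene, H2-Q7 foremost (13.95%), and of those in H2-Q7 transcripts 26.5% do, H2-Q10 foremost (14.0%), so the assignment of reads there is uncertain. The summed counts of H2-Q6 and H2-Q7 had a log2 fold change of 3.73 (SE 0.38) in bKO-labelled and 3.52 (SE 0.38) in control islets.
H2-Q4 shares 36.4% of its 50-base stretches with other genes, and 496 of its exon bases (19.1%) overlap Gm11131 on the opposite strand. The strand setting of the counting is not given, so reads there cannot be told apart.

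H2-M3, which presents peptides that begin with N-formyl methionine, rose least. It had 24.7, 25.3 and 22.9 CPM in bKO-labelled islets with cytokines against 8.73, 10.2 and 11.3 CPM without (log2 fold change 1.27, SE 0.10, adjusted p = 6.42e-07). In control islets H2-M3 had 22.7, 24.8 and 24.9 CPM with cytokines against 11.01, 11.3 and 10.5 CPM without (log2 fold change 1.14, SE 0.10, adjusted p = 1.57e-06). Its replicates lay closest together, with an SD of 0.11 around the group means on the log2 scale.

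H2-T23, which encodes Qa-1, the ligand of an inhibitory receptor of natural killer cells, rose with a wide error. It had 85.6, 326 and 593 CPM in bKO-labelled islets with cytokines against 5.94, 26.2 and 23.7 CPM without (log2 fold change 4.17, SE 0.82, adjusted p = 9.61e-04). In control islets H2-T23 had 83.0, 98.5 and 394 CPM with cytokines against 21.0, 24.9 and 24.8 CPM without (log2 fold change 3.02, SE 0.78, adjusted p = 5.68e-03). Replicate 1 was the lowest library in both bKO-labelled groups, and replicate 3 was the highest in both treated groups.
H2-T22, a ligand of some gamma-delta T cells, had 34.3, 149 and 225 CPM in bKO-labelled islets with cytokines against 3.26, 17.1 and 16.3 CPM without (log2 fold change 3.48, SE 0.78, adjusted p = 2.27e-03). In control islets H2-T22 had 36.6, 36.4 and 136 CPM with cytokines against 15.2, 16.9 and 17.1 CPM without (log2 fold change 2.08, SE 0.74, adjusted p = 0.0287). The call for H2-T22 in control islets was lost when any of several single libraries was left out. Without replicate 3 of the treated control islets the log2 fold change of H2-T22 was 1.15 (adjusted p = 0.181). Without replicates 1, 2 or 3 of the untreated control islets the adjusted p was 0.0800, 0.0728 and 0.0697. With limma-voom the log2 fold change was 1.76 (adjusted p = 0.0682).
For H2-T23 the log2 fold change without replicate 3 of the treated control islets was 1.94 (adjusted p = 0.0323), and without replicate 3 of the treated bKO-labelled islets it was 3.46 (adjusted p = 3.34e-03).

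Nlrc5, the transactivator of the class I genes, had the largest estimated fold change of the 10 genes in each genotype, closely followed by H2-T23 in bKO-labelled islets. Without replicate 1 of the treated bKO-labelled islets that order turned, with log2 fold changes of 4.62 for H2-T23 and 4.27 for Nlrc5. It had 93.2, 120 and 102 CPM in bKO-labelled islets with cytokines against 6.16, 6.26 and 4.86 CPM without (log2 fold change 4.19, SE 0.18, adjusted p = 8.76e-09), which is 18.3-fold. In control islets Nlrc5 had 110, 132 and 140 CPM with cytokines against 2.66, 4.04 and 4.15 CPM without (log2 fold change 5.13, SE 0.19, adjusted p = 2.63e-09), which is 35.1-fold. The untreated groups do not overlap, and bKO-labelled islets were the higher. Nlrc5 lies at chr8:94434356-94527272 on the plus strand, and 78 of its exon bases (0.918%) overlap 9330175E14Rik on the opposite strand.

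**Figure D2:**
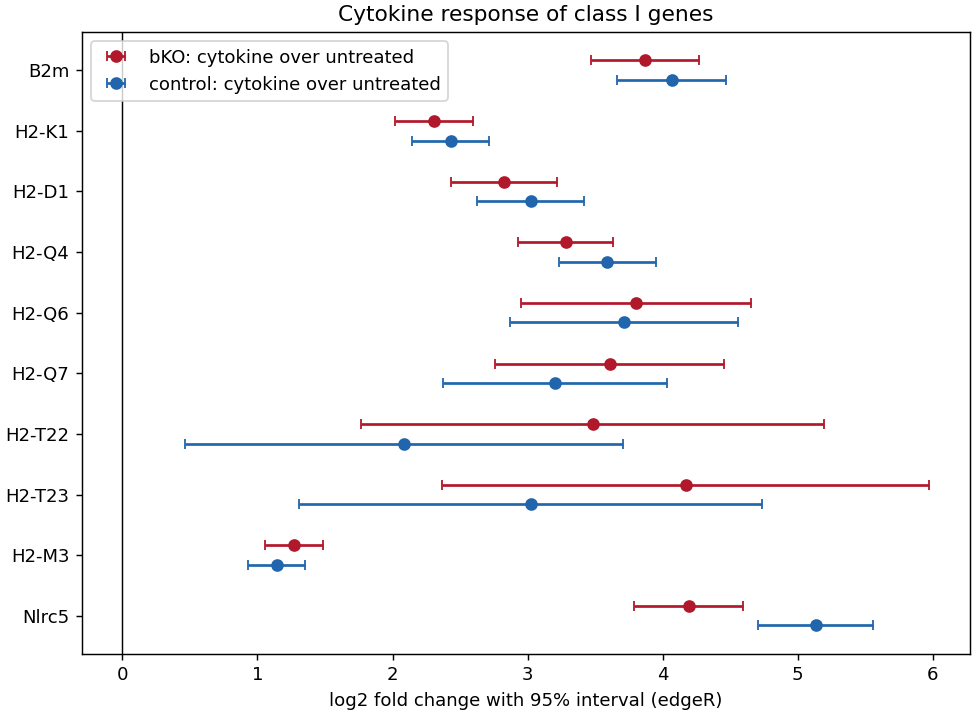
Log2 fold change of cytokine over untreated islets for each gene, with bKO-labelled islets (red) above control islets (blue), and 95% intervals from edgeR, n = 3 per group. All intervals lie above 0, those of H2-T22 and H2-T23 are widest, and Nlrc5 is the gene whose intervals in the 2 genotypes do not overlap.

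Compared per kb of exon, the level of B2m relative to that of the summed heavy chains was higher with cytokines. The exon length merges all annotated transcripts of a gene, from 860 bases for B2m to 4265 for H2-Q7 among B2m and the heavy chains. The transcripts present in islets may be shorter, so the order of genes and the size of ratios depend on these lengths. With cytokines B2m stood at 2731 ± 170 CPM per kb in bKO-labelled islets (SD, n = 3), against 187 ± 10.2 without, and at 2899 ± 51.7 in control islets, against 173 ± 50.8 without. The summed 8 heavy chains stood at 3027 ± 230 CPM per kb in bKO-labelled islets with cytokines against 442 ± 14.4 without. In control islets the sum was 2828 ± 175 CPM per kb with cytokines against 382 ± 46.2 without.
The ratio of B2m to the summed heavy chains was 0.834, 0.968 and 0.913 in bKO-labelled islets with cytokines against 0.431, 0.411 and 0.427 without. In control islets it was 1.05, 0.969 and 1.06 with cytokines against 0.373, 0.433 and 0.534 without. The ratio was thus higher in each of the 6 treated libraries than in any untreated one. With cytokines the genotypes met without overlap, at 0.968 in the highest bKO-labelled and 0.969 in the lowest control library, and without cytokines they overlapped. The ratio was not tested between genotypes.
Within each group the order of levels per kb had H2-D1 first and H2-K1 next among the heavy chains, followed by H2-Q4, with no overlap between these genes in any group. B2m stood above H2-D1 in both treated groups, with no overlap, and below it in both untreated groups, with overlap in the control islets. Below H2-Q4 the order differed between groups and most neighbours overlapped. Nlrc5 was last in 3 of the 4 groups, at 12.4 ± 1.62 and 0.678 ± 0.0921 CPM per kb in bKO-labelled islets with and without cytokines and 0.426 ± 0.0977 in untreated control islets. In treated control islets H2-Q7 was last, overlapping Nlrc5.
H2-K1 and H2-D1 together made up 76.1% to 85.8% of the summed heavy chain level in treated bKO-labelled libraries and 86.9% to 87.9% in untreated ones, and 78.0% to 84.9% in treated and 85.9% to 86.9% in untreated control libraries. When the counts of the 8 heavy chains were summed to 1 feature, its log2 fold change was 2.77 (SE 0.11, adjusted p = 4.09e-09) in bKO-labelled and 2.88 (SE 0.11, adjusted p = 3.36e-09) in control islets.

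**Figure D3:**
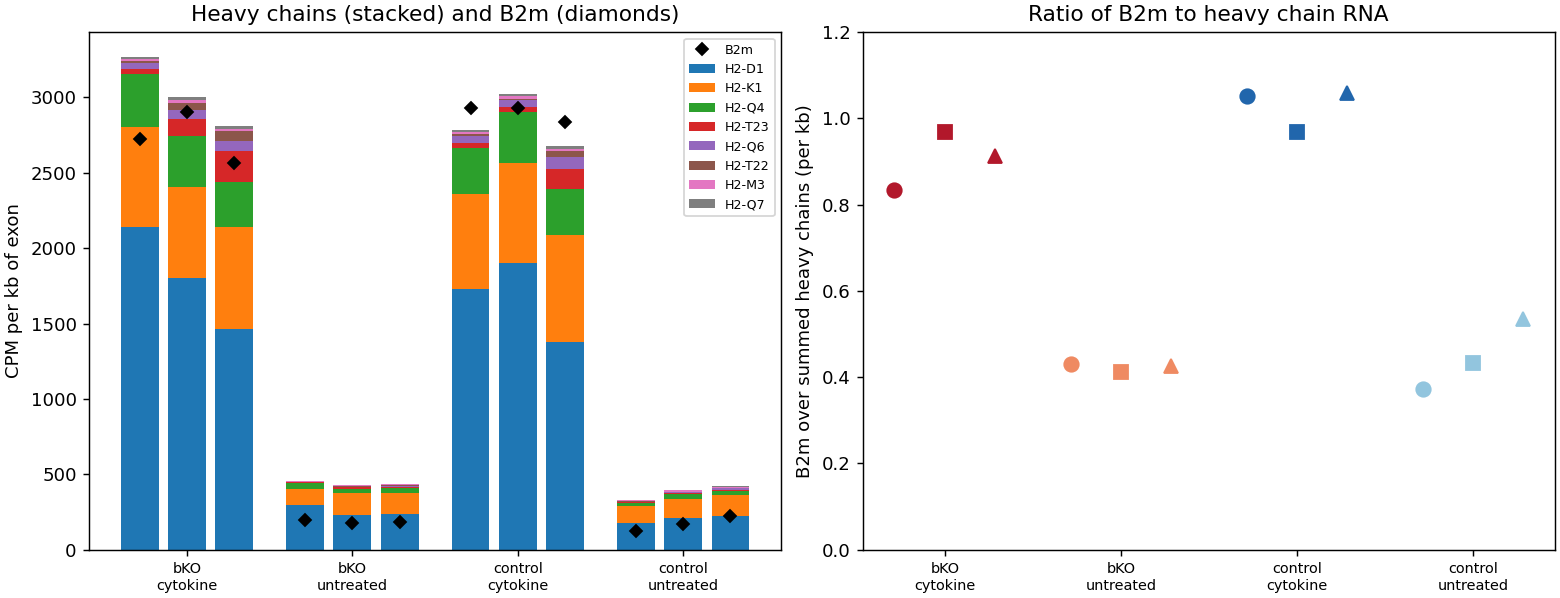
Left, CPM per kb of exon of the 8 heavy chains (stacked bars) and of B2m (diamonds) in each library. Right, the ratio of B2m to the summed heavy chains, with circle, square and triangle for replicates 1, 2 and 3: it is 0.834 or higher in treated and 0.534 or lower in untreated libraries.

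Between genotypes, 0 of the 10 genes passed the test with cytokines, where 0.232% of all tested genes did, and 0 of 10 without, where 0.0758% did. At an unadjusted p under 0.05 the counts were 0 of 10 with cytokines (17.8% of all tested genes) and 2 of 10 without (5.55%). With cytokines the log2 difference of bKO-labelled over control islets was -0.09 for B2m (95% interval -0.44 to 0.27), -0.04 for H2-K1 (-0.31 to 0.23), 0.11 for H2-D1 (-0.26 to 0.47) and -0.27 for Nlrc5 (-0.62 to 0.08). The interval for H2-T23 ran from -0.78 to 2.39 and that for H2-T22 from -0.59 to 2.53, so that differences of several fold were not detectable there. Without cytokines the log2 difference was -0.34 for H2-T23 and -0.42 for H2-T22, and without replicate 1 of the untreated bKO-labelled islets it was 0.08 and 0.03.
Without cytokines the groups did not overlap for 3 of the 10 genes, Nlrc5, H2-D1 and H2-Q4, each higher in bKO-labelled islets, where 8.24% of all tested genes were higher without overlap. The log2 difference was 0.67 for Nlrc5 (SE 0.17, adjusted p = 0.349), 0.38 for H2-Q4 (SE 0.15, adjusted p = 0.774) and 0.30 for H2-D1 (SE 0.17, adjusted p = 1). DESeq2 passed Nlrc5 in this comparison, with a log2 difference of 0.68 (adjusted p = 0.0326), as 1 of 128 genes, against 15 by edgeR.
The difference between the cytokine responses, bKO-labelled minus control, passed edgeR's test for 0 of 10 members and for 0% of all tested genes, with 10.9% at an unadjusted p under 0.05. Nlrc5 had the smallest p of the 10 genes: its log2 fold change was lower in bKO-labelled islets by a difference of -0.94 (SE 0.24, 95% interval -1.46 to -0.42, adjusted p = 0.282 by edgeR). DESeq2 gave -0.96 (adjusted p = 0.0178), 1 of 186 genes it passed. For the summed heavy chains the difference was -0.10 (SE 0.15, adjusted p = 0.793).

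H2-T22 and H2-T23 differed between libraries of the same group more than nearly all other genes. Their SD around the group means was 1.13 and 1.12 on the log2 scale, at percentile 99.7 of 14653 genes with at least 1 CPM, whose median was 0.154. H2-Q6 (0.53) and H2-Q7 (0.52) were at the percentiles 95.6 and 95.3, and the other members lay between 0.11 and 0.24.
GENCODE lists the near neighbour H2-T-ps as an unprocessed pseudogene and the near neighbour H2-T10 as a polymorphic pseudogene. Both were looked at after these values were seen. They deviated from the group mean in the opposite direction to H2-T23 and H2-T22 in 8 of the 12 libraries. In the other 4, replicate 2 of the treated bKO-labelled islets and the untreated control islets, all these genes deviated in the same direction. The count ratio of H2-T23 to H2-T-ps was 1.604, 12.1 and 89.9 in bKO-labelled islets with cytokines and 1.48, 13.6 and 12.8 without. In control islets it was 1.45, 1.53 and 12.8 with cytokines and 15.4, 11.2 and 13.7 without.
The ratio of H2-T22 to H2-T10 was 0.395, 2.65 and 24.2 in bKO-labelled islets with cytokines and 0.396, 4.06 and 3.56 without. In control islets it was 0.365, 0.402 and 2.58 with cytokines and 3.31, 3.33 and 3.14 without. The same 4 libraries had the lowest values of both ratios: replicate 1 of both bKO-labelled groups and replicates 1 and 2 of the treated control islets. Replicate 3 of the treated bKO-labelled islets had the highest of both, and the remaining 7 libraries lay between 11.2 and 15.4 for the first ratio and between 2.58 and 4.06 for the second.
A ratio between the classical genes also differed between libraries of a group. H2-D1 over H2-K1, per kb, was 3.21, 2.97 and 2.16 in bKO-labelled islets with cytokines against 2.79, 1.61 and 1.62 without, and 2.75, 2.88 and 1.93 in control islets with cytokines against 1.64, 1.65 and 1.68 without. Among untreated libraries, replicate 1 of the bKO-labelled islets stood apart in all 3 ratios. Among treated libraries the match was partial: replicate 2 of the bKO-labelled islets had a high H2-D1 to H2-K1 ratio (2.97) with middle values of the other two.

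**Figure D4:**
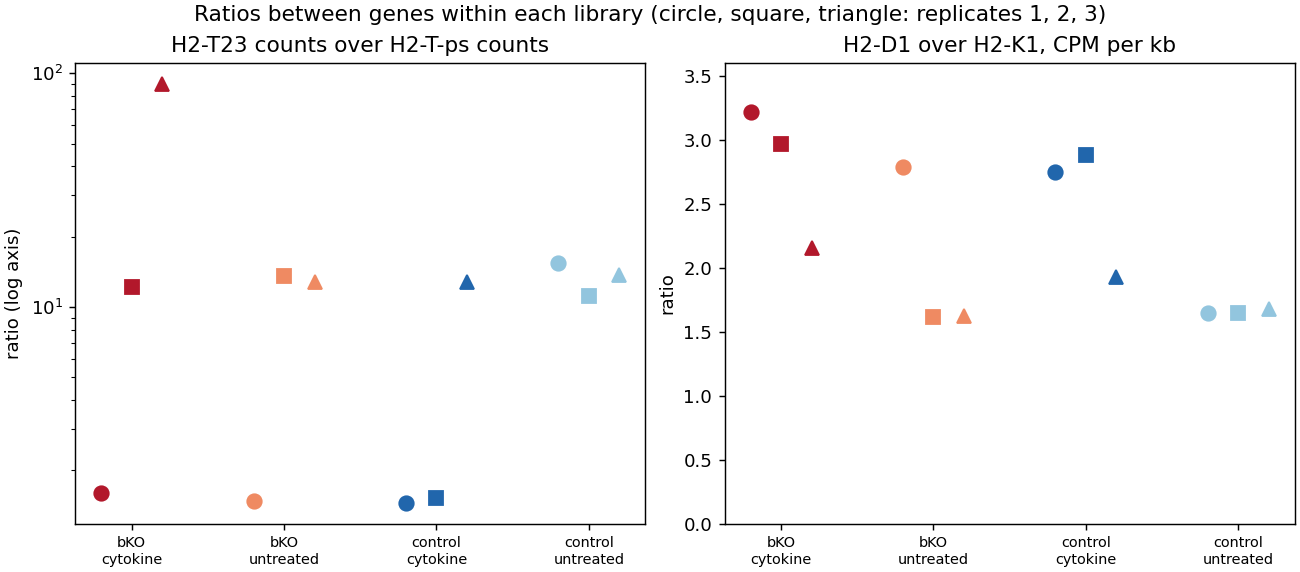
Left, counts of H2-T23 over counts of H2-T-ps in each library, on a log axis. Right, H2-D1 over H2-K1 in CPM per kb. Circle, square and triangle mark replicates 1, 2 and 3. The 4 lowest libraries on the left, at 1.45 to 1.604, lie between 2.75 and 3.21 on the right, as does replicate 2 of the treated bKO-labelled islets (2.97), which is at 12.1 on the left.

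In replicate 3 of the treated bKO-labelled islets, H2-T23 and H2-T22 were above the group mean by 1.22 and 1.10 on the log2 scale, while H2-T-ps and H2-T10 deviated by -1.68 and -1.94. In replicate 1 of that group H2-T23 and H2-T22 deviated by -1.57 and -1.61, while H2-T-ps and H2-T10 were above the mean by 1.33 and 1.28. H2-Q5, an H2-Q gene, deviated by -2.40 in replicate 1 of the untreated bKO-labelled islets, which was also low for H2-T23. H2-Q5 stood near the floor in that group, at 0.0612 to 0.948 CPM. Other class I genes of low level went both ways in that replicate, with H2-T24 at 1.09 and H2-M1 at -1.14.
Across the 12 libraries, of the 20 genes whose deviations had the largest correlation with those of H2-T23, of either sign, 10 (50%) lay on chromosome 17, where 5.08% of the 14652 genes compared lie. H2-T22 came first (Pearson's r = 0.992), and the chromosome 17 genes included Rsph9 (r = 0.956) and Mrps18a (r = -0.930), which lie outside the H2 complex. This is a description over 12 libraries with 8 degrees of freedom left after the group means. The strain label names a mixed background, and whether the mice carried different alleles on chromosome 17 was not tested.

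**Figure D5:**
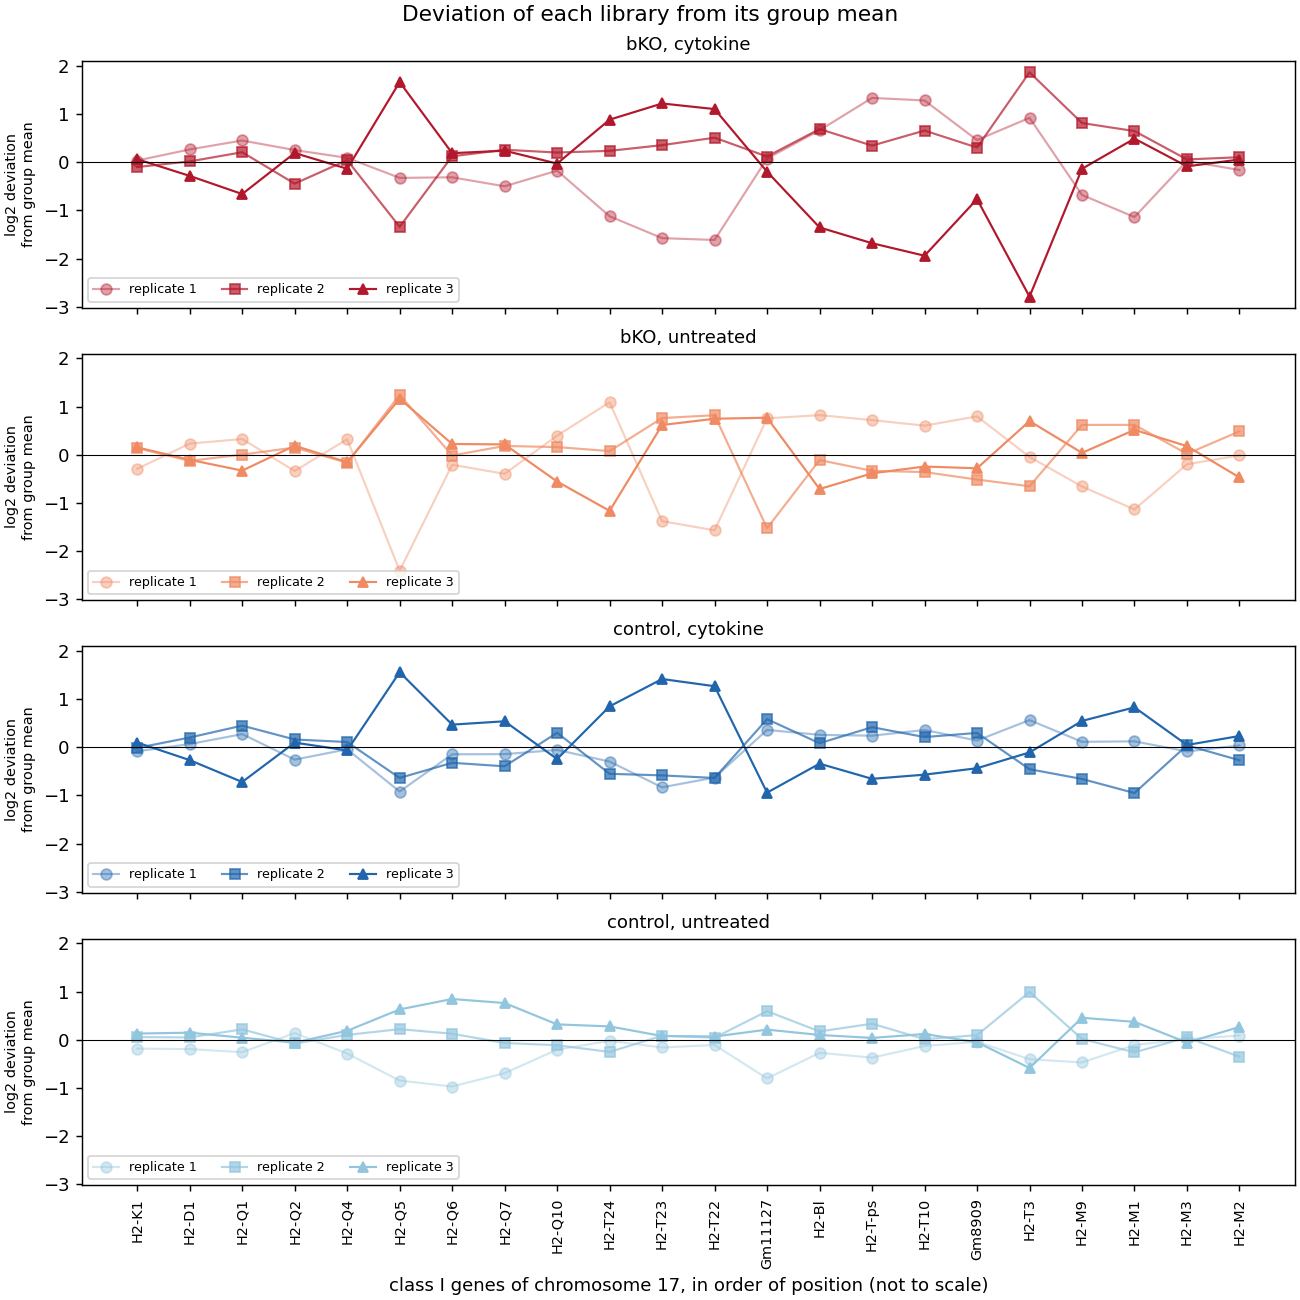
Deviation of each library from its group mean, in log2 CPM, for class I genes of chromosome 17 in order of position (evenly spaced, not to scale), 1 panel per group and 1 line per library. H2-T23 and H2-T22 have the same sign in all 12 libraries, and H2-T-ps and H2-T10 the opposite sign in 8 of them.

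Part of the transcript sequence of these genes also occurs in other genes. Of the 50-base stretches in H2-T22 transcripts 53.5% occur in another gene, H2-T10 foremost, and 1003 of its exon bases (29.4%) overlap A930015D03Rik on the opposite strand. For H2-T23 the share is 14.5%. Summed with H2-T10, H2-T22 had 121, 206 and 235 CPM in bKO-labelled islets with cytokines against 11.5, 21.3 and 20.8 CPM without, a log2 fold change of 3.39 (SE 0.29, adjusted p = 1.44e-06).
In control islets the sum was 137, 127 and 189 CPM with cytokines against 19.8, 21.9 and 22.6 CPM without, a log2 fold change of 2.81 (SE 0.28, adjusted p = 5.84e-06). The summed pair thus rose in both genotypes with a smaller error than H2-T22 alone. H2-T23 summed with H2-T-ps had a log2 fold change of 4.10 (SE 0.61) in bKO-labelled and 3.26 (SE 0.58) in control islets, and its libraries stayed apart, at 139, 353 and 600 CPM in treated bKO-labelled islets and 140, 163 and 425 CPM in treated control islets.

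The other class I genes of the H2 complex rose as a rule. Of 20 listed, 14 passed the filter, and 11 of these rose with cytokines in each genotype, against 28.8% of all tested genes in bKO-labelled and 26.8% in control islets. The median log2 fold changes of the 14 were 3.19 in bKO-labelled and 3.18 in control islets. H2-Q10, which encodes a secreted class I molecule, rose by 3.25 in bKO-labelled and 4.21 in control islets, and H2-M2 by 2.80 and 2.03. H2-Q10 stood low, at 5.02 CPM on average in bKO-labelled islets with cytokines against 0.527 without. In control islets it averaged 4.89 CPM with cytokines against 0.259 without. It shares 50-base stretches with the more abundant H2-Q7 and H2-K1, so the assignment of reads to it is uncertain. The 3 that did not pass in either genotype were H2-Q2, H2-M1 and H2-M9. H2-Q2 had 74.3 CPM in bKO-labelled islets with cytokines against 77.9 without, and 99.2 CPM in control islets with cytokines against 92.4 without.

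Of the genes that cut, carry and load class I peptides, 13 of 13 rose in each genotype, with median log2 fold changes of 2.28 in bKO-labelled and 2.51 in control islets. The share of all tested genes that rose was 28.8% in bKO-labelled and 26.8% in control islets. Tap1, a subunit of the transporter of peptides into the endoplasmic reticulum, averaged 517 CPM in bKO-labelled islets with cytokines against 20.6 without (log2 fold change 4.65, SE 0.13), and 562 CPM in control islets with cytokines against 19.5 without (4.85, SE 0.13). Its partner Tap2 rose by 2.64 in bKO-labelled and 3.06 in control islets. The immunoproteasome subunits Psmb9 and Psmb8 rose by 3.64 and 3.36 in bKO-labelled islets and by 4.13 and 3.62 in control islets. The general chaperones Canx and Pdia3 rose least, by 0.52 and 0.45 in bKO-labelled and 0.58 and 0.55 in control islets.
Between genotypes 0 of the 13 passed with cytokines, where 0.232% of all tested genes did, and 0 without, where 0.0758% did. In the difference between responses 0 of the 13 passed, as did 0% of all tested genes. The estimate of that difference was below 0 for all 13, from -0.49 (Psmb9, adjusted p = 0.293) to -0.06 (Canx, adjusted p = 0.843), with a median of -0.20, where the median of all tested genes was 0.0085. The estimated difference between genotypes without cytokines, which enters it, was above 0 for all 13 (median 0.09), and 7 of the 13 were higher in bKO-labelled islets without overlap, against 8.24% of all tested genes. The estimated difference with cytokines, which also enters it, was below 0 for all 13 (median -0.07). There 2 of the 13, Psmb9 and Tap2, were lower in bKO-labelled islets without overlap, against 10.8% of all tested genes.

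Of the 8 listed factors with which NLRC5 acts, Rfx5 rose in each genotype, 3 fell and 4 did not pass. Rfx5 averaged 64.2 CPM in bKO-labelled islets with cytokines against 42.8 without (log2 fold change 0.58, adjusted p = 1.10e-03), and 85.4 CPM in control islets with cytokines against 40.4 without (1.08, adjusted p = 1.18e-05). Of all tested genes 33.6% fell in bKO-labelled and 33.9% in control islets. Rfxank, Nfyb and Creb1 fell in each genotype, with log2 fold changes of -0.62, -0.53 and -0.38 in bKO-labelled and -0.66, -0.44 and -0.46 in control islets. With cytokines Rfx5 had a log2 difference of -0.41 between bKO-labelled and control islets that did not pass (adjusted p = 0.145), although the groups did not overlap, and 10.8% of all tested genes were lower without overlap.

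Of 11 listed genes of the interferon-gamma and NF-kB signal, 11 rose in each genotype, against 28.8% of all tested genes in bKO-labelled and 26.8% in control islets. Irf1, an activator of class I genes, rose by 3.51 in bKO-labelled and 3.74 in control islets. Socs1, an inhibitor of JAK kinases, averaged 105 CPM in bKO-labelled islets with cytokines against 2.69 without (log2 fold change 5.29), and 79.1 CPM in control islets with cytokines against 2.15 without (5.20). Ptpn2 itself rose by 1.51 in bKO-labelled and 1.47 in control islets.

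Whole islets hold other cells that carry class I, and in such samples fewer cells of a type and less RNA per cell cannot be told apart. Among all tested genes, 28.8% rose and 33.6% fell with cytokines in bKO-labelled islets, and 26.8% rose and 33.9% fell in control islets. Of 10 macrophage markers 9 rose in each genotype, with summed levels of 480 to 617 CPM in treated and 160 to 223 CPM in untreated bKO-labelled libraries, and 461 to 568 CPM in treated and 166 to 194 CPM in untreated control libraries. Of 10 endothelial markers 10 fell in each genotype, with summed levels of 286 to 389 CPM in treated and 886 to 918 CPM in untreated bKO-labelled libraries, and 229 to 324 CPM in treated and 788 to 1018 CPM in untreated control libraries. The 8 T and NK cell markers summed to 10.2 to 17.5 CPM in treated and 5.23 to 6.12 CPM in untreated bKO-labelled libraries, and 7.86 to 11.4 CPM in treated and 3.63 to 5.31 CPM in untreated control libraries, with Ncr1 at 0 in every group. Of these 8 markers 3 passed the filter, and the sum holds opposite members: Lck rose by 1.57 in bKO-labelled and 1.36 in control islets, and Trac had log2 fold changes of -1.56 and -2.38. Of 9 beta cell markers 6 fell in each genotype, with median log2 fold changes of -2.61 in bKO-labelled and -2.17 in control islets. With cytokines 2 of the 9 were lower in bKO-labelled than in control islets, where 0.232% of all tested genes differed between genotypes. The summed levels of the 9 markers did not show the fall with cytokines. They were 90079 to 162469 CPM in treated and 124419 to 135767 CPM in untreated bKO-labelled libraries. In control libraries they were 144608 to 177637 CPM in treated and 124962 to 136770 CPM in untreated ones. The sum holds Ins1, Ins2 and Iapp, the 3 markers that did not pass in bKO-labelled islets (log2 fold changes -0.10, 0.22 and -0.49). In control islets Ins2 (0.46) and Iapp (0.13) did not pass either. The sum therefore does not describe the 6 markers that fell. The part of these cells in the class I levels was not tested.
Of the receptors that read class I, Cd8a, Cd8b1, Klrc1, Klrd1 and Klra1 did not pass the filter. Pirb, an inhibitory class I receptor of myeloid cells, rose in each genotype, by 1.94 in bKO-labelled and 1.66 in control islets. Lilrb4a rose in control islets by 0.93 (adjusted p = 6.11e-03) and had a log2 fold change of 0.55 in bKO-labelled islets (adjusted p = 0.0663).

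By the root mean square difference in centred log2 CPM over the 12 libraries, the genes whose pattern was most like that of B2m were Oas1a (0.151), Tnf (0.161), Oasl2 (0.167), Casp4 (0.171) and Zc3h12a (0.173). For H2-K1 they were Tapbp (0.143), Psme1 (0.143), Upp1 (0.152) and Parp10 (0.158). Tapbp, the bridge between TAP and the empty heavy chain, averaged 1518 CPM in bKO-labelled islets with cytokines against 312 without and 1561 CPM in control islets with cytokines against 299 without. For Nlrc5 the nearest genes were Tap1 (0.266), Tnfaip3 (0.330), Il6 (0.333), Zc3h12a (0.342) and Cd274 (0.365), which encodes the checkpoint ligand PD-L1, at larger distances than for B2m and H2-K1. Since most of the variation is the cytokine effect, this measure mainly ranks genes by how close their fold changes are.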

How the data were processed

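Total RNA of whole mouse islets was measured in 12 libraries, 3 per group, and groups were taken from the sample titles and genotype labels. The authors deposited raw counts, whole numbers for each gene, and 0 columns of them were left out. The GRCm38 genome, STAR 2.5.2a, featureCounts 1.6.2, cutadapt 1.16, FastQC 0.11.7 and DESeq2 1.30.0 are named in the submitters' processing notes. The sources used here do not give the annotation release or the strand setting.

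Genes were kept by filterByExpr, scaled by TMM and tested in R 4.3.3 with edgeR 4.0.16 (quasi-likelihood, a coefficient per group over all 12 libraries, Benjamini-Hochberg adjustment over 19800 genes at 0.05). CPM set each count against the TMM-scaled total of its library, and log2 deviations used CPM with a prior count of 1. Exon lengths and positions are from GENCODE M21 (GRCm38), in which all 55536 gene IDs matched, and promoters are from RefSeq (GRCm38.p6). Shared stretches were counted over all GENCODE transcripts. The smallest chi-square per degree of freedom between libraries of a group was 15.0, so none was treated as a copy of another. The edgeR test was tested on simulated counts.

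The members and gene lists were chosen with earlier results of these data known, so the genes named (all members, up to 4 genes per list with the smallest adjusted p, a few fixed genes, and the 5 genes most like B2m, H2-K1 and Nlrc5) are not independent support. Some genes that this rule names are not reported here. H2-T10, H2-T-ps, H2-T24, H2-Q5, Rsph9, Mrps18a, H2-Q2, H2-M1, H2-M9, Canx, Pdia3, Ins1, Ins2 and Iapp were named after their values were seen. Alternatives were other scalings and filters, DESeq2 1.42.0, limma-voom with limma 3.58.1, fits of the compared groups only, a robust fit, the filtered table, a replicate block, stricter thresholds, summed copies and leaving out each library.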

Additional observations from a re-analysis of the deposited data

How the results depend on the processing

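The rise of all 10 genes in bKO-labelled islets and of 9 in control islets, all but H2-T22, passed the test under each alternative run, and the count of members called was 10 in bKO-labelled and 9 to 10 in control islets when each library was left out in turn. H2-T22 in control islets missed the threshold with limma-voom (1.76). The summed features (H2-T22 with H2-T10, H2-T23 with H2-T-ps, H2-Q6 with H2-Q7) were chosen after seeing the data. With a 2-fold minimum 5755 genes were called in bKO-labelled and 5417 in control islets. Between genotypes with cytokines, 46 genes were called, against 190 with no filter, 700 by DESeq2, 0 with only the groups compared, 7 with the replicate block, 7 at an adjusted p under 0.01 and 25 with a 2-fold minimum. Without cytokines 15 were called, against 32 with no filter, 128 by DESeq2 (1 member, Nlrc5, at 0.68) and 121 with only the groups compared. For the difference in response 0 were called, against 1 with no filter and 186 by DESeq2 (1 member, Nlrc5, at -0.96). Leaving out each library gave 11050 to 12634 genes for cytokines in bKO-labelled and 10846 to 13164 in control islets. Between genotypes it gave 4 (without treated control replicate 3) to 444 (without treated bKO-labelled replicate 1) with cytokines and 12 to 59 (without treated bKO-labelled replicate 2) without, and 0 to 3 for the difference in response. No member was called between genotypes in any of these runs with a library left out.

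Signs turned only for uncalled differences. With cytokines between genotypes H2-M3 was -0.0032 with DESeq2's size factors, -0.016 with no filter and -0.0037 by DESeq2, and H2-Q6 was -0.012 with no filter. Without cytokines H2-Q6 was 0.049 with limma-voom and 0.036 with the replicate block, and in the difference in response it was -0.0064 with limma-voom, -0.0063 with the replicate block and -0.042 with the block within genotype. Leaving out libraries, signs also turned between genotypes with cytokines for H2-D1 (-0.035 to 0.24), H2-K1 (-0.083 to 0.0086), H2-M3 (-0.035 to 0.049) and H2-Q6 (-0.14 to 0.28). Without cytokines they turned for B2m (-0.081 to 0.35), H2-K1 (-0.0055 to 0.21), H2-Q6 (-0.42 to 0.44), H2-Q7 (-0.44 to 0.33), H2-T22 (-0.75 to 0.026) and H2-T23 (-0.67 to 0.081), and in the difference in response for H2-Q6 (-0.43 to 0.43) and H2-Q7 (-0.078 to 0.72). The cause was not tested. Same-numbered libraries of a genotype deviated together with r from -0.20 to 0.13, so the numbers were not taken to pair them, and the replicate block changed no member's call. The count ratio of H2-T23 to H2-T-ps was alike in same-numbered treated and untreated libraries for bKO-labelled replicates 1 (1.604 and 1.48) and 2 (12.1 and 13.6) and control replicate 3 (12.8 and 13.7), and not for the other 3 pairs.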

Other observations

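The class I-like molecules, whose heavy chains are encoded outside the H2 complex, differed among themselves in their response. Of 7 listed, 6 passed the filter, and with cytokines 3 rose in bKO-labelled islets (28.8% of all tested genes rose) while 0 rose and 1 fell in control islets (33.9% of all tested genes fell). Their median log2 fold change was 0.87 in bKO-labelled and -0.30 in control islets. Cd1d1, which presents lipids to natural killer T cells, had 10.7, 18.8 and 11.5 CPM in bKO-labelled islets with cytokines against 4.24, 5.06 and 5.25 CPM without (log2 fold change 1.50, SE 0.29, adjusted p = 8.38e-04 by edgeR). In control islets Cd1d1 had 10.5, 5.05 and 8.60 CPM with cytokines against 4.20, 5.73 and 6.86 CPM without (log2 fold change 0.52, SE 0.29, adjusted p = 0.136). Procr, the endothelial protein C receptor, had a log2 fold change of 1.18 in bKO-labelled islets (adjusted p = 2.51e-03) and -0.35 in control islets (adjusted p = 0.269).

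Mr1, which presents vitamin metabolites to mucosal T cells, fell in control islets by 0.73 on the log2 scale (adjusted p = 0.0405). It had 6.82, 15.8 and 8.00 CPM in bKO-labelled islets with cytokines against 8.90, 8.49 and 8.57 CPM without, a log2 fold change of 0.24 (adjusted p = 0.473). Replicate 2 of the treated bKO-labelled islets, which stood apart on the second principal component, had the highest value of its group for Cd1d1 and Mr1. The difference between the genotypes' responses did not pass edgeR's test for any of the 6 genes, and the smallest adjusted p among them was 0.272, for Procr (difference 1.54, SE 0.38).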
